A study of Arabidopsis thaliana with 18 samples.

Results

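The libraries described here are the 9 unstressed ones of an 18-library polyA RNA-seq study of whole Arabidopsis thaliana seedlings, and the comparison is that of the double mutant ire1a1b against WT and ire1b combined. They were chosen by their labels alone: 3 libraries each of WT (genotype tag wild type), ire1b (ire1b mutant) and ire1a1b (ire1a/ire1b double mutant), all kept in DMSO, the solvent control. The mean of the 3 WT libraries and the mean of the 3 ire1b libraries were averaged, so that neither control is labelled as an ire1a mutant, while ire1b shares the other labelled mutation with the double mutant. Seedlings of all groups were 7 days old and had grown on vertical plates before 6 h in liquid medium with sucrose. The other 9 libraries are the same genotypes given 5 µg/mL TM (tunicamycin, which blocks N-glycosylation in the endoplasmic reticulum, ER) for 6 h, and they served as separate samples in which the same contrast could be measured again. The labels name no mutant allele and no ecotype, and do not say how many seedlings went into a library.

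IRE1 is a transmembrane sensor of the ER. When unfolded proteins collect in the ER lumen, its cytosolic ribonuclease domain removes a short piece from the BZIP60 mRNA, and the protein made from the spliced mRNA enters the nucleus and raises ER chaperones and transport genes. A second branch runs through BZIP28, which is cut from its membrane anchor in the Golgi. Arabidopsis has the paralogs IRE1A and IRE1B, and IRE1 is studied mostly under stress, so the question put to these libraries is what differs when no stress agent was added.

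Gene counts ranged from 16.35 to 22.99 M per DMSO library, and 20399 of 27416 genes had enough counts to be tested. Markers of the labelled tissue were present. The 19 green shoot genes summed to between 15400 and 25000 CPM (counts scaled to library size, within the 9 DMSO libraries), with overlapping ranges in the 3 genotypes. The 10 endodermis genes summed to 95.1 to 102 CPM in WT, 87.1 to 96.3 CPM in ire1b and 96.8 to 99.5 CPM in ire1a1b, so that the last lay above ire1b. The 7 root hair genes summed to 76.1 to 86.4 CPM in WT, 90.6 to 97.1 CPM in ire1b and 87.2 to 98.4 CPM in ire1a1b, so that both mutant lines lay above WT. The part of these levels in the results was not tested. Replicate 1 of WT and replicate 1 of ire1a1b stood apart from the rest. They lay at -46.7 and -46.3 on the first principal component, which held 61.5% of the variance, while the other 7 libraries lay between 7.4 and 23.3. The counts of called genes in DMSO are given with and without these 2 libraries below.

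The targeted genes come first, as the check of the labels. IRE1A (AT2G17520, chromosome 2, 7617151 to 7621129, plus strand, TAIR10.1) stood at 92.9, 83.5 and 94.4 CPM in WT, at 91.3, 94.4 and 98.2 CPM in ire1b and at 23.0, 20.2 and 24.3 CPM in ire1a1b. All 3 double mutant libraries lay far below all 6 controls, by 4.11-fold (log2 difference -2.04 ± 0.08, SE; edgeR adjusted p = 3.6e-05). Some IRE1A signal thus remained in ire1a1b, and gene-level counts do not show which stretch of the transcript it comes from. IRE1B (AT5G24360, chromosome 5, 8316388 to 8319981, plus strand) was counted at 28.9, 31.2 and 37.3 CPM in WT, at 38.4, 38.4 and 47.7 CPM in ire1b and at 37.7, 40.1 and 36.3 CPM in ire1a1b. Its count was thus not lower in either line labelled ire1b, with a log2 difference of 0.35 ± 0.12 between ire1b and WT (adjusted p = 0.93). Gene-level counts do not show whether that transcript is intact, so the IRE1B part of the genotype is taken from the labels and "ire1b" below means the libraries so labelled.

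Without stress few genes passed the threshold in the contrast of the double mutant with its controls. Of 20399 tested genes, 26 passed an adjusted p of 0.05 (0.127%), 23 of them higher in ire1a1b (0.113%) and 3 lower (0.0147%). An unadjusted p below 0.05 was seen for 382. That is fewer than this threshold would let through if no gene differed, so the p-values of this fit ran high. The low number of calls thus does not show that few genes differ. The 23 rose by 1.64-fold to 3.3-fold, with a median of 2.03-fold (log2 0.72 to 1.72, median 1.02), while the median over all tested genes was 0.00. None of the 23 is a classical ER chaperone, and they are described below by their product names, a grouping made after their values were seen. For each of the 26 genes the 3 ire1a1b libraries did not overlap the 6 controls. Over all tested genes 0.804% were non-overlapping and higher, and 0.549% non-overlapping and lower. The count of 26 rested on having all 3 double mutant libraries: 15 genes passed without ire1a1b replicate 1, 12 without replicate 2 and 8 without replicate 3, and 16 without replicate 1 of every group (14 of the 26). With only the 2 outlying libraries left out, 21 genes passed, 19 of the 26. Other settings gave more calls, 36 with all 18 libraries in the fit and 39 with DESeq2, each with all 26. Against WT alone, in the libraries of these 2 genotypes, the count was 1 without and 191 with a replicate block (below). The number of calls thus depends on how the spread between replicates is handled. All 26 kept their direction in every setting tried. These settings reuse the libraries in which the 26 did not overlap the controls, so the kept direction is no separate support.

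**Figure D1:**
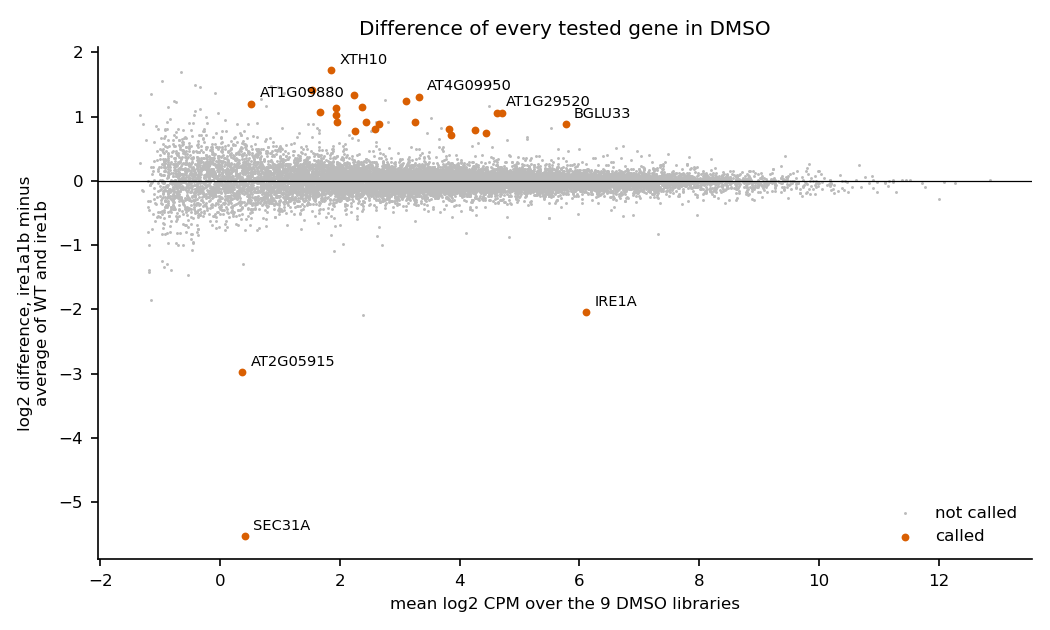
Log2 difference between ire1a1b and the average of WT and ire1b (y axis) against the mean log2 CPM over the 9 DMSO libraries (x axis), 1 point per tested gene. The 26 called genes are drawn in orange: 23 lie between 0.72 and 1.72, and SEC31A, AT2G05915 and IRE1A lie below the cloud.

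Among the lowered genes, SEC31A (AT1G18830, chromosome 1, 6489233 to 6494634, plus strand), annotated as a WD40 repeat protein with the name of the outer coat subunit of COPII vesicles, was nearly absent from the double mutant. It had 17, 27 and 31 counts in WT, 54, 69 and 20 counts in ire1b, and 1, 1 and 0 counts in ire1a1b. The 2 counts of the double mutant against 218 of the controls make it 56.8-fold lower after scaling for depth, with a 95% exact interval of 15.5 to 472 that covers counting error only. Its adjusted p was 0.026 and ranged from 0.0001 to 0.23 over the alternatives, passing 0.05 again without WT replicate 1 (0.024) and without ire1b replicate 3 (0.019) but not without any other single library. The call was also lost with the replicate as a block in the same 9 libraries (0.055), with the controls as 1 group of 6 (0.088), without replicate 1 of every group (0.17) and without replicate 1 of WT and of ire1a1b (0.066). Of 10 tested COPI and COPII coat genes SEC31A alone passed, and the median of the list was 0.00.

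The second lowered gene, AT2G05915 (chromosome 2, 2263816 to 2264265), encodes an uncharacterized protein. Its counts were 21, 35 and 33 in WT, 29, 44 and 39 in ire1b and 3, 4 and 6 in ire1a1b, so that every double mutant library lay below every control. The scaled difference was 8.06-fold (95% exact interval 4.61 to 15.4; adjusted p = 0.031, 1.1e-06 to 0.28 over the alternatives). The call held without WT replicate 1 (0.015) and was lost without any other single library, at 0.059 to 0.28. The third is IRE1A itself, which passed in every alternative.

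The strongest rise was that of XTH10 (AT2G14620), one of the xyloglucan endotransglucosylase/hydrolases that cut and rejoin xyloglucan chains in the cell wall. It was measured at 1.48, 1.72 and 2.89 CPM in WT, at 1.78, 1.98 and 2.15 CPM in ire1b and at 6.77, 6.52 and 6.39 CPM in ire1a1b. The controls overlapped each other and the double mutant stood 3.3-fold above both (log2 1.72 ± 0.18, adjusted p = 0.0084). Of 28 tested XTH genes 1 passed, XTH10 itself, and their median log2 difference was 0.03. Another 3 wall-related genes rose beside it. AT3G05620, of the plant invertase/pectin methylesterase inhibitor superfamily, went from 1.4 to 2.2 CPM over the controls to between 4.47 and 5.13 CPM (log2 1.42 ± 0.15, adjusted p = 0.0093). AT1G09880, a rhamnogalacturonate lyase family gene, stayed low at 1.89 to 2.25 CPM in ire1a1b but lay above the 0.835 to 1.08 CPM of the controls (log2 1.2 ± 0.14, adjusted p = 0.017). AT3G15800, a glycosyl hydrolase, was at 6.05, 5.62 and 5.74 CPM against 2.41 to 2.86 CPM (log2 1.13 ± 0.09, adjusted p = 0.0031).

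Several called genes encode small membrane proteins. Reticulons bend ER membranes into tubules, and 2 of the 14 tested genes annotated as reticulons were called, with a family median of log2 -0.04. This family and the next 2 were counted after the values had been seen. Over all tested genes 0.127% were called, and a higher share in families picked this way is no separate result. AT1G68230 was at 5.93, 5.24 and 5.51 CPM in WT, at 6.10, 6.23 and 5.82 CPM in ire1b and at 15.1, 13.4 and 12.7 CPM in ire1a1b (log2 1.24 ± 0.08, adjusted p = 0.00095). AT3G18260 was at 2.92 to 3.94 CPM in the 6 controls and at 8.17, 7.56 and 8.22 CPM in ire1a1b (log2 1.15 ± 0.11, adjusted p = 0.0054). HVA22F, of a plant family related to the membrane-shaping DP1/Yop1 proteins, rose from 2.17 to 3.08 CPM in the controls to 5.36 to 5.97 CPM (log2 1.02 ± 0.12, adjusted p = 0.017). It was the only called one of 9 tested HVA22 genes (median 0.06). Of the 3 tested AWPM-19-like genes, a family of small membrane proteins found in wheat plasma membranes, 2 were called (median 0.72). For AT1G29520 the values were 20.2, 17.5 and 19.1 CPM in WT, 17.1, 17.0 and 17.6 CPM in ire1b and 37.3, 37.1 and 38.4 CPM in ire1a1b. That is the smallest adjusted p among the raised genes, 0.00031, with a log2 difference of 1.06 ± 0.06. AT5G18970 rose less, from 10.5 to 12.8 CPM in the controls to 18.2 to 21.1 CPM (log2 0.72 ± 0.08, adjusted p = 0.011).

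**Figure D2:**
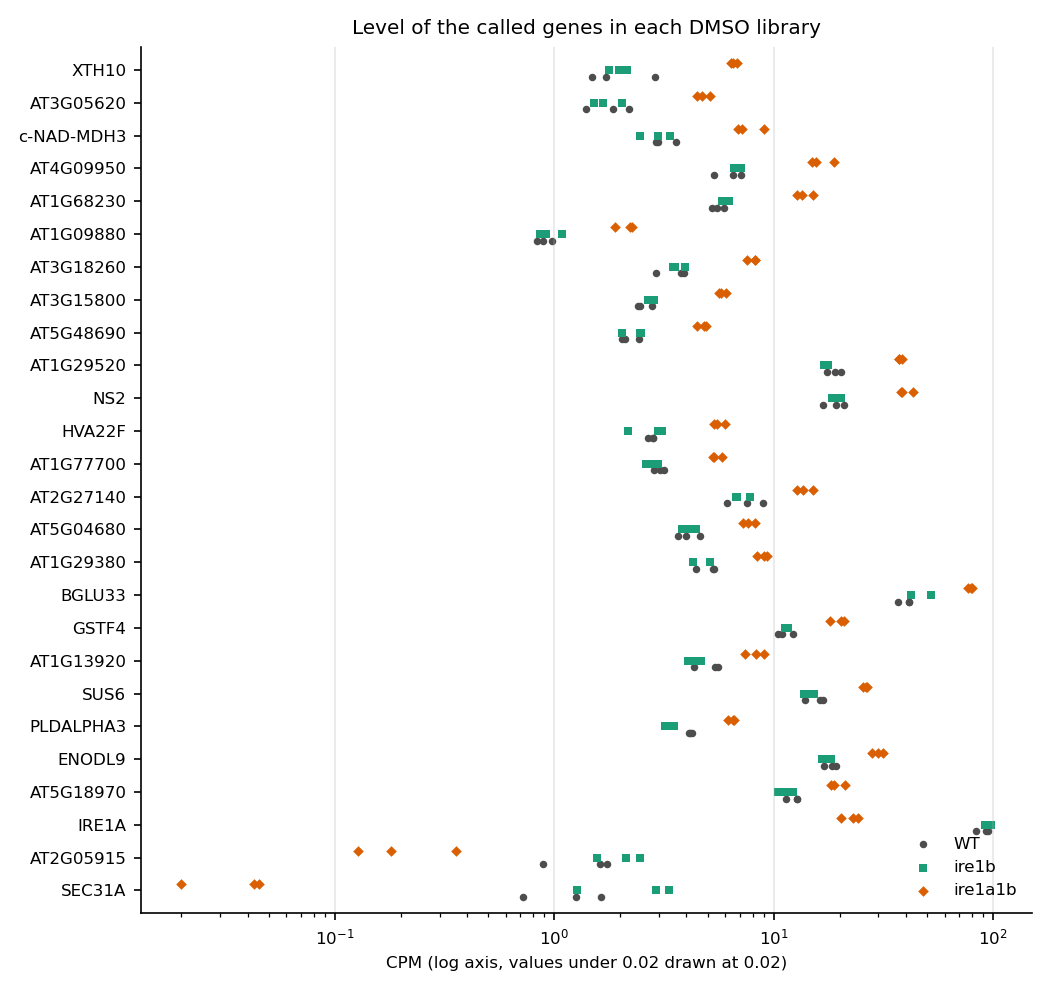
CPM of the 26 called genes in each DMSO library on a log axis, WT as grey circles, ire1b as green squares and ire1a1b as orange diamonds. For the upper 23 genes the 3 orange diamonds lie to the right of all 6 control points, and for IRE1A, AT2G05915 and SEC31A they lie to the left (the SEC31A library with 0 counts is drawn at 0.02).

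Other called genes encode enzymes of various pathways. NS2 (AT3G07420), an asparaginyl-tRNA synthetase, stood at 19.2, 16.8 and 20.9 CPM in WT, at 19.7, 18.4 and 20.3 CPM in ire1b and at 42.9, 37.9 and 38.3 CPM in ire1a1b (log2 1.05 ± 0.08, adjusted p = 0.0025). c-NAD-MDH3 (AT5G56720), of the malate dehydrogenase family that interconverts malate and oxaloacetate, rose from 2.46 to 3.57 CPM in the controls to 9.03, 6.84 and 7.15 CPM (log2 1.34 ± 0.14, adjusted p = 0.0081). BGLU33 (AT2G32860), a beta-glucosidase, was the most abundant raised gene, at 41.4, 36.9 and 41.4 CPM in WT, 42.2, 42.4 and 52.0 CPM in ire1b and 79.7, 79.2 and 76.5 CPM in ire1a1b. Its log2 difference was 0.88 ± 0.08 (adjusted p = 0.0044). SUS6 (AT1G73370), a sucrose synthase, which splits sucrose for callose and other glucan synthesis, moved from 13.8 to 16.7 CPM to between 25.6 and 26.7 CPM (log2 0.79 ± 0.07, adjusted p = 0.0051). PLDALPHA3 (AT5G25370), a phospholipase D that releases phosphatidic acid, rose by log2 0.78 ± 0.08 (adjusted p = 0.0084). Of 35 tested tau and phi glutathione S-transferases, which detoxify by conjugation, 1 passed, GSTF4 (log2 0.80 ± 0.08, adjusted p = 0.0064; list median -0.05).

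The remaining raised genes have less defined roles. AT4G09950, a P-loop nucleoside triphosphate hydrolase, was among the larger changes, at 5.34 to 7.12 CPM in the controls and 18.8, 15.6 and 14.9 CPM in ire1a1b (log2 1.31 ± 0.11, adjusted p = 0.0031). ENODL9 (AT3G20570), an early nodulin-like protein that in Arabidopsis is found at the plasma membrane of sieve elements, was at 16.6 to 19.2 CPM in the controls and at 28.1, 29.7 and 31.5 CPM in the double mutant (log2 0.75 ± 0.07, adjusted p = 0.0051). The others were AT5G48690 (UBA domain), AT1G77700 (thaumatin family), AT2G27140 (HSP20-like), AT5G04680 (ankyrin repeats), AT1G29380 (X8 domain) and AT1G13920 (remorin). Their log2 differences ran from 1.07 down to 0.80, and AT1G13920 was nearest to the threshold at an adjusted p of 0.049. Just past it were AT1G08160 (log2 0.53, adjusted p = 0.054), AT3G20450 (0.89, 0.059) and RTM2 (0.75, 0.076).

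The raised genes lay on all 5 chromosomes, 8 on chromosome 1, 4 on chromosome 2, 5 on chromosome 3, 1 on chromosome 4 and 5 on chromosome 5. The closest pair, AT1G29380 and AT1G29520, had starts 40.2 kb apart. Of the 26 called genes 6 overlap an annotated gene on the opposite strand by between 3 and 440 bases (AT5G18970 the most), and no source used here gives the strand setting of the counting, so reads from the overlap could belong to either gene.

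The control average was also split into WT and ire1b. The raised genes were chosen in these same libraries and did not overlap any control, so their place above both parts is no separate result. Because the contrasts share libraries, their values are only set side by side. Against WT 17 genes passed (0.0833%), 16 higher (0.0784%) and IRE1A lower (0.0049%), against ire1b 23 passed (0.113%), 19 higher (0.0931%) and 4 lower (0.0196%), and 17 of the 26 passed against both. Without replicate 1 of WT and of ire1a1b 13 passed against WT and 20 against ire1b. With any one of the 9 libraries left out the first count fell to between 3 and 7, and the second to between 2 and 14, apart from 22 without WT replicate 1. For the 23 raised genes the log2 difference between ire1b and WT lay between -0.31 and 0.19, with an adjusted p of at least 0.93. That does not show equal controls: PLDALPHA3, at the low end, was at 4.13 to 4.24 CPM in WT and 3.19 to 3.51 CPM in ire1b. Over the whole table ire1b against WT gave 0 calls with edgeR (0%), 529 genes at an unadjusted p below 0.05, 9 calls with DESeq2, 1 call without ire1a1b replicate 1, and 3 calls without replicate 1 of WT and of ire1a1b. The 529 are likewise fewer than a p of 0.05 would let through if no gene differed. The 0 calls thus do not show equal controls.

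The gene residuals of same-numbered WT and ire1a1b libraries correlated at 0.88, 0.65 and 0.70. Residuals were taken from group means, so the shift of the 2 outlying libraries, both numbered 1, also enters the other correlations. These values are thus not separate signs of pairing, and the block takes the pairing as given. A fit of the 6 WT and ire1a1b libraries with the replicate block called 191 of 20279 genes (0.942%). Of these 117 were higher (0.577%) and 74 lower (0.365%), where the same 6 libraries without the block gave 1. All 26 genes of the averaged contrast passed in this blocked fit of 6 libraries. Without the 2 libraries numbered 1, which stood apart, the 4 that remain leave 1 residual degree of freedom per gene besides the spread shared over genes. That fit called 164 genes, 114 of the 191 among them, all 191 had the same sign, and all 26 passed again. Its libraries are among those that chose the 191, and both blocked fits reuse libraries that chose the 26. The same sign and the repeated calls are therefore no separate support. In the 6-library fit BZIP60, the splicing substrate of IRE1, was lower than in WT by log2 -0.34 ± 0.05 (adjusted p = 0.00039, and 0.0093 without the 2 libraries). Its CPM was 104, 215 and 202 in WT against 76.1, 177 and 165 in ire1a1b, lower within each pair, although the groups overlap.

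None of the ER genes that IRE1 is known for passed in the averaged contrast, apart from SEC31A. Of 25 tested ER folding genes (BiP and other chaperones, calnexins, calreticulins, disulfide isomerases) 0 passed in either direction, and their median log2 difference was 0.04. The same 0 held for 12 regulators of the unfolded protein response (UPR; median -0.08), 12 genes of ER-associated degradation (-0.01), 22 of ER translocation and N-glycosylation (0.00) and 30 autophagy genes (-0.01). Over these 101 genes 2 had an unadjusted p below 0.05 with edgeR, and DESeq2 called 1, BIP3. Over all 20399 tested genes these counts were 382 and 39. BIP2, a constitutive ER Hsp70, stood at 294, 383 and 322 CPM in WT, 374, 414 and 393 CPM in ire1b and 329, 433 and 368 CPM in ire1a1b, with all groups overlapping (log2 0.06 ± 0.11, adjusted p = 1). BIP1 and BIP2 are close copies, so reads may have been split between them. Against WT alone with the block in 6 libraries, 6 ER folding genes were higher and 1 lower: ERDJ3B (log2 0.33 ± 0.05), PDIL2-2 (0.26), P58IPK (0.25), CNX1 (0.23), CRT1A (0.21) and HSP90.7 (0.20) above, and BIP3 (-1.05) below. Over all genes that blocked fit called 0.942%. Without the libraries numbered 1 PDIL2-2 (adjusted p = 0.12) and HSP90.7 (0.15) no longer passed, and the other 5 did. These 6 differed from ire1b by log2 -0.09 to 0.02, and ire1b minus WT was 0.18 to 0.36 for them, without a call. The same blocked fit called 2 UPR regulators lower, BZIP60 and BI1 (-0.22), 1 degradation gene higher, HRD1B (0.25, adjusted p = 0.024), 1 translocation gene lower, AT1G29310 (-0.38, adjusted p = 0.0002), and 0 autophagy genes. Of these BI1 alone was lost without the libraries numbered 1 (0.15). HRD1B and AT1G29310 differed from ire1b by only log2 -0.12 and -0.07, and ire1b minus WT was 0.37 and -0.32, without a call. For BZIP60 the difference from ire1b was -0.35, and ire1b minus WT was 0.03, also without a call.

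BIP3, the BiP gene that is nearly silent without stress, differed between the controls. It was at 2.5, 3.71 and 1.84 CPM in WT, at 13.7, 15.5 and 5.44 CPM in ire1b and at 1.15, 1.57 and 1.18 CPM in ire1a1b. The double mutant was lowest and ire1b highest, with no overlap between any 2 groups. The averaged contrast did not pass with edgeR (log2 -2.09 ± 0.40, adjusted p = 0.34) but did with DESeq2, the contrast with ire1b did (-3.14 ± 0.43, adjusted p = 0.049), and ire1b minus WT was 2.1 ± 0.39 (adjusted p = 0.89). SARA1A, a COPII GTPase gene with too few counts to test, had 6, 1 and 2 counts in WT, 18, 18 and 4 in ire1b and 5, 3 and 5 in ire1a1b. Of the ire1b libraries 2 lay above all others, while the counts of WT, ire1a1b and the remaining ire1b library overlapped.

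Lists outside the ER gave few calls too. Over all 27 gene lists, with 460 tested entries, 2 were called higher (XTH10 and GSTF4) and 1 lower (SEC31A). Of their 457 distinct genes 19 had an unadjusted p below 0.05, and DESeq2 called 5. Over all 20399 tested genes 26 were called, 382 had an unadjusted p below 0.05, and DESeq2 called 39. Each share was higher in the lists, but these were chosen with earlier results of these data known. That difference was not tested. The list medians ran from -0.26 (iron deficiency, 0 of 15 called) to 0.15 (phosphate starvation, 0 of 11). Salicylate defence genes gave 0 of 14 (median 0.12), jasmonate 0 of 14 (0.01), cytosolic heat shock 0 of 11 (0.03), mitotic cell cycle 0 of 11 (-0.07), WRKY factors 0 of 58 (-0.03) and aquaporins 0 of 23 (-0.01). In the 6-library blocked fit against WT 4 of these 6 lists gave calls: PR2 (log2 1.38) and a small heat shock gene, AT3G46230 (0.79), higher, WRKY72 higher (0.50) and WRKY30 lower (-0.57), and the aquaporins PIP2B (-0.26), TIP2;3 (-0.63) and PIP2;4 (-0.58) lower. The blocked fit also called 5 of 19 ER body and lectin genes, 2 higher and 3 lower, where the averaged contrast called 0. Over all genes that blocked fit called 191 of 20279 (0.942%). Without the libraries numbered 1, JAL22 alone of these 5 still passed (adjusted p = 0.045), and BGLU21, BGLU23, JAL33 and GLL22 did not (0.14 to 0.31). PIP2B (0.12) and AT3G46230 (0.058) were lost as well, while PR2, WRKY72, WRKY30, TIP2;3 and PIP2;4 still passed. PR1, the salicylate marker, had the largest value in its list, log2 1.37, but spread from 0 to 5.67 CPM over the controls (adjusted p = 1). Green shoot, root hair and endodermis markers gave 0 calls each with edgeR and with DESeq2, with medians of 0.05, 0.09 and 0.11, and 2 of their 36 genes had an unadjusted p below 0.05.

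**Figure D3:**
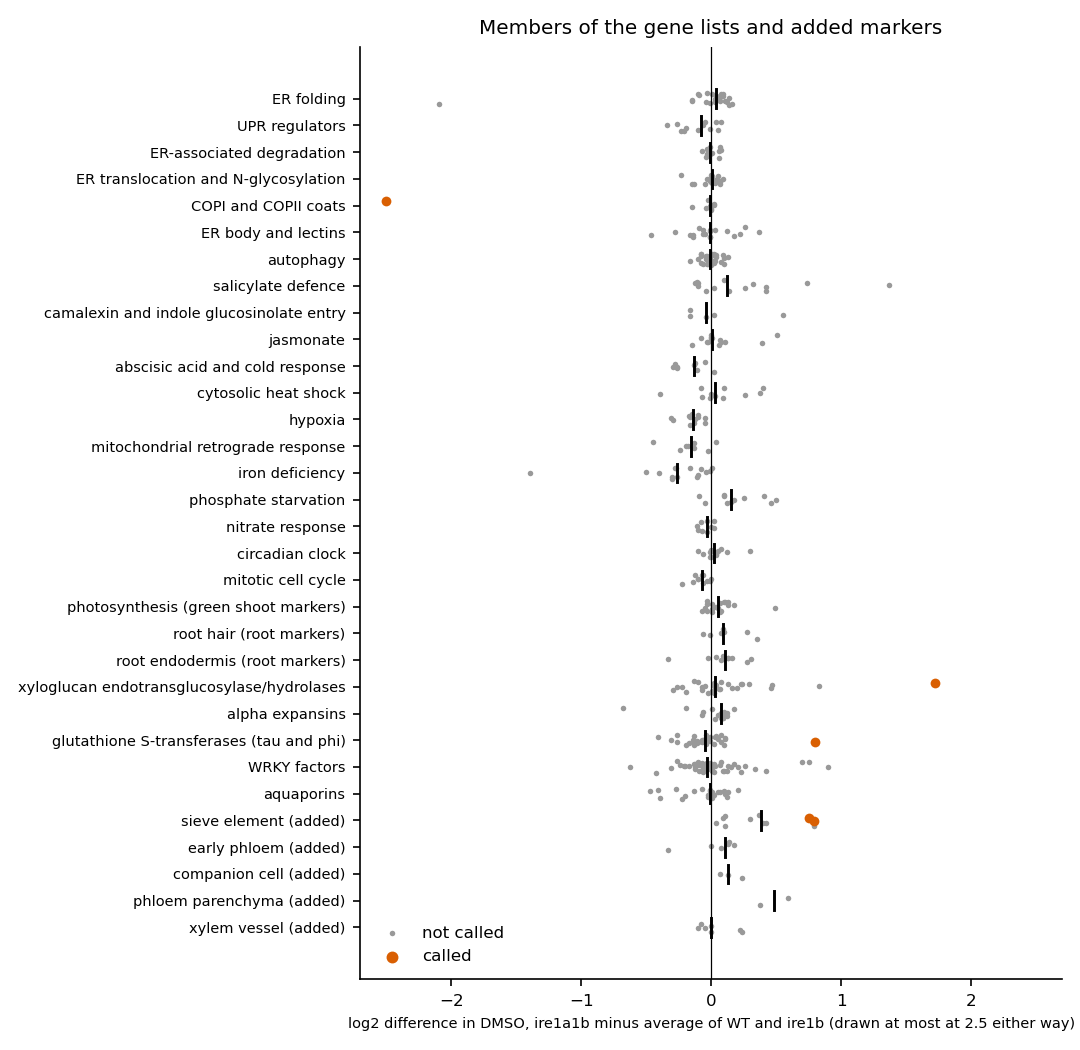
Log2 difference in DMSO between ire1a1b and the average of WT and ire1b (x axis, values beyond 2.5 drawn at 2.5) for the tested members of each list, with called genes in orange and the list median as a black bar. Orange points appear in the coat, XTH and glutathione S-transferase lists and among the added sieve element markers, and the medians of the 27 lists stay between -0.26 and 0.15.

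SUS6 and ENODL9 are both known from sieve elements, the conducting cells of the phloem, and phloem and xylem markers were therefore added after the values had been seen, as a description with no test of the list. Among 12 tested sieve element markers 2 were called, these same genes that prompted the list, beside 0.127% over all tested genes. The median log2 difference was 0.38, beside 0.00 over all tested genes. The summed level of the list was 196 to 204 CPM in WT, 183 to 186 CPM in ire1b and 228 to 239 CPM in ire1a1b, and no tested marker was at 0. Without SUS6 and ENODL9, which prompted the list, the median was 0.34, 0 of 10 were called, and the sum was 162 to 171 CPM in WT, 150 to 154 CPM in ire1b and 172 to 182 CPM in ire1a1b. RTM2, a small heat shock-like protein that restricts potyvirus movement in the phloem, was at 7.47 to 10.8 CPM in the controls and 15.5, 14 and 15.2 CPM in ire1a1b, yet missed the threshold (adjusted p = 0.076). RTM3, which acts in the same restriction, was at 1.77 to 2.97 CPM in the controls and at 4.90, 3.78 and 3.96 CPM in ire1a1b (log2 0.79 ± 0.16, adjusted p = 0.36). Both passed in the averaged contrast with DESeq2, and against WT with the replicate block in edgeR (adjusted p = 0.00019 and 0.048, and 0.00061 and 0.49 without the libraries numbered 1). The other 8 were not called either: in log2, the filament proteins SEOA 0.09 and SEOB 0.04, the phloem regulator APL 0.11, the callose synthase CALS7 0.11, the sucrose synthase SUS5 0.30, the transcription factors NAC045 0.37 and NAC086 0.42 and the nuclease NEN4 0.40. Early phloem (6 tested, median 0.11), companion cell (3, 0.13), phloem parenchyma (2, 0.48) and xylem vessel markers (7, 0.00) had no call with edgeR or DESeq2. An unadjusted p below 0.05 was seen for 1 of these 18 genes, beside 382 of 20399 over all tested genes. The phloem parenchyma sum was 254 and 290 CPM in replicate 1 of WT and of ire1a1b, and 105 to 124 CPM in all other libraries. Its median was 0.08 against WT and 0.89 against ire1b. In whole seedlings, more cells of a type and more RNA per cell cannot be told apart, and the part of cell makeup in the result was not tested.

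The TM libraries give the same genotype contrast in samples that the DMSO comparison did not use. There 1851 of 20183 genes passed (9.17%; 1250 or 6.19% higher and 601 or 2.98% lower), and all 23 raised and all 3 lowered genes passed again in the same direction, with adjusted p at most 0.011. The raised genes had log2 differences of 0.61 to 2.07 with TM, median 1.19, beside 0.72 to 1.72 and 1.02 in DMSO. All 26 passed under every TM alternative except that without replicate 1 of every group, where 25 did. XTH10 was again the top one, at 1.44 to 2.00 CPM in the TM controls (scaled within the TM libraries) and at 7.22, 6.03 and 7.99 CPM in ire1a1b.

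Of the 26 genes 3 differed in size between the conditions, by the test of the difference in all 18 libraries (516 of 20615 genes called, 2.5%), all 3 larger with TM. BGLU33 was at 18.6, 11.9 and 11.2 CPM in WT, 31.6, 30.7 and 28.4 CPM in ire1b and 80.7, 80.7 and 79.9 CPM in ire1a1b with TM, and its difference was larger by log2 1.09 ± 0.17 (adjusted p = 0.0014). AT1G29520 stood at 9.46, 9.01 and 9.54 CPM in WT, 12.9, 12.6 and 13.4 CPM in ire1b and 38.9, 34.4 and 38.4 CPM in ire1a1b, a difference larger by log2 0.70 ± 0.08 (adjusted p = 5.4e-05). For ENODL9 the difference was larger by log2 0.55 ± 0.10 (adjusted p = 0.0037). In these genes the WT values with TM lay below those of ire1b, and the double mutant lay above both. The ire1a1b means were close in DMSO and TM: 78.5 and 80.4 CPM for BGLU33, 37.6 and 37.3 for AT1G29520, 29.8 and 28.3 for ENODL9. The control means were lower with TM: 42.7 and 22.1 CPM, 18.1 and 11.1, and 17.7 and 11.6, in the same order. CPM was scaled within each condition.

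**Figure D4:**
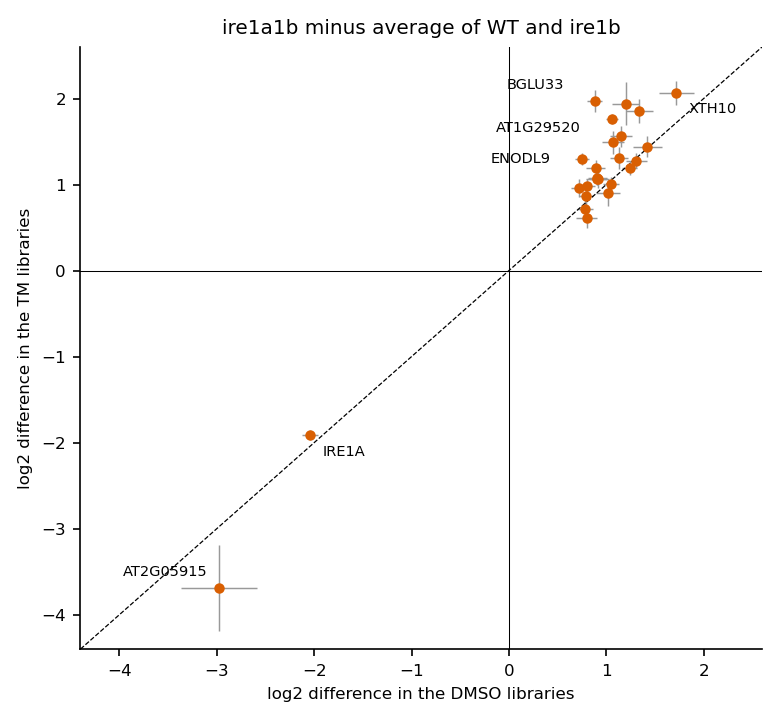
Log2 difference between ire1a1b and the average of WT and ire1b in the TM libraries (y axis) against the same in the DMSO libraries (x axis) for the called genes, with SE bars and a dashed line of equal size. SEC31A (-5.52 and -12.20) lies outside the axes. All points fall in the quadrants of equal sign, and BGLU33, AT1G29520 and ENODL9, which lie above the line, are the 3 whose difference between the conditions passed.

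SEC31A, called in DMSO, was called with TM as well. Its counts reached 8024, 11174 and 9268 in WT and 8340, 6789 and 6310 in ire1b with TM, but 2, 0 and 3 in ire1a1b (difference of the contrasts adjusted p = 0.18). Other genes of the stress response passed in the difference of the contrasts without passing in DMSO. NAC103, a transcription factor downstream of BZIP60, was at 2.20, 2.04 and 1.94 CPM in WT and 1.58, 1.75 and 1.24 CPM in ire1a1b in DMSO (averaged contrast log2 -0.26 ± 0.16, adjusted p = 1), and its contrast was larger with TM by log2 -5.85 ± 0.22. AT3G15980, annotated as a coatomer beta' subunit, had a like pattern, with log2 -0.15 ± 0.06 in DMSO (adjusted p = 1) and a change of -3.72 ± 0.11 in the contrast with TM (adjusted p = 2.5e-11).

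The 250 bases upstream of the annotated starts were searched on both strands for letters tied to the ER stress response: the ER stress element (CCAAT, any 10 bases, CACG), its second form (ATTGG, any 1 base, CCACG), the unfolded protein response elements CCACGTCA and TCATCG, the core CCACGT within the former, and the G-box-like ACACGTG. Among the 23 raised genes 1 held any of them, GSTF4 with CCACGT, which 8.85% of 20284 promoters hold. The ER stress element was in 0.833% of all promoters, its second form in 0.0739%, CCACGTCA in 1.52%, TCATCG in 6.36% and ACACGTG in 4.62%. Of the lowered genes AT2G05915 held TCATCG and SEC31A held none. Shown here are the lowered SEC31A, the raised AT1G29520 and ENODL9, and BIP3 for comparison, read from TAIR10.1 on the strand of each gene, with matches to the ER stress element and ACACGTG (or their reverse complements) in capitals.
SEC31A, chr1:6488983-6489232, plus strand: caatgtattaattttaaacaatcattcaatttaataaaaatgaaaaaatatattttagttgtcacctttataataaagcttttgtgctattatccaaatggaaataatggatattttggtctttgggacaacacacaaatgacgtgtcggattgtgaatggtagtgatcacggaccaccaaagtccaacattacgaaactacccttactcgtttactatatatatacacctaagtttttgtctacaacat
AT1G29520, chr1:10323386-10323635, plus strand: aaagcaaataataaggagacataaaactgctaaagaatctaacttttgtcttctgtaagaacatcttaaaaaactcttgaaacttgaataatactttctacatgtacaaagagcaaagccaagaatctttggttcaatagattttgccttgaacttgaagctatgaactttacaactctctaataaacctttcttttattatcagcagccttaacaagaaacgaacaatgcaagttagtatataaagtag
ENODL9, chr3:7187522-7187771, minus strand: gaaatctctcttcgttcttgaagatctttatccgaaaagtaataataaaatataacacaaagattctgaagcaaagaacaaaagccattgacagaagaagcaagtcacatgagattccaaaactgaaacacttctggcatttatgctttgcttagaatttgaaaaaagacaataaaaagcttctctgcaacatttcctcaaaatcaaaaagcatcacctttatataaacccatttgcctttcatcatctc
BIP3, chr1:2931851-2932100, minus strand: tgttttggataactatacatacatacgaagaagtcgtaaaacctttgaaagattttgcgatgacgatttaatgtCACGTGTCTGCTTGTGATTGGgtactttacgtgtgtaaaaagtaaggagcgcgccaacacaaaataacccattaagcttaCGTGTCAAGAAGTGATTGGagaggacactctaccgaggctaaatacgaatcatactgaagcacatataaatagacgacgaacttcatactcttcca
BIP3 held the ER stress element at 2 places, the first overlapping ACACGTG, and also TCATCG. The raised AT1G29520 and ENODL9 held no match in this window, which says only that these letters are not there.

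Genes near the mutated loci were examined separately. Within 100 kb of IRE1A 38 tested genes gave 0 calls in the averaged contrast, with log2 differences from -0.21 to 0.15 and 0 genes at an unadjusted p below 0.05. Within 100 kb of IRE1B 35 tested genes gave 0 calls and 3 genes at an unadjusted p below 0.05, beside 382 of 20399 over all tested genes. Of the 35, 34 lay between -0.35 and 0.25. DESeq2 called 0 in both windows. The exception, AT5G24355, was picked out after its values had been seen. It is an uncharacterized gene on the minus strand (chromosome 5, 8314679 to 8315438) just upstream of IRE1B. It stood at 0.127, 0.232 and 0.105 CPM in WT, at 0.594, 0.918 and 0.886 CPM in ire1b and at 1.28, 0.945 and 0.769 CPM in ire1a1b, so that both lines labelled ire1b lay above all 3 WT libraries. The log2 difference from WT was 2.31 ± 0.40 in ire1b (adjusted p = 0.83) and 2.65 ± 0.38 in ire1a1b (adjusted p = 0.068). In the 6-library blocked fit of WT and ire1a1b the adjusted p was 0.002, and 0.023 without the libraries numbered 1. With TM the WT libraries were at 0.0442 to 0.338 CPM and the 6 others at 0.714 to 1.89 CPM, again without overlap.

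**Figure D5:**
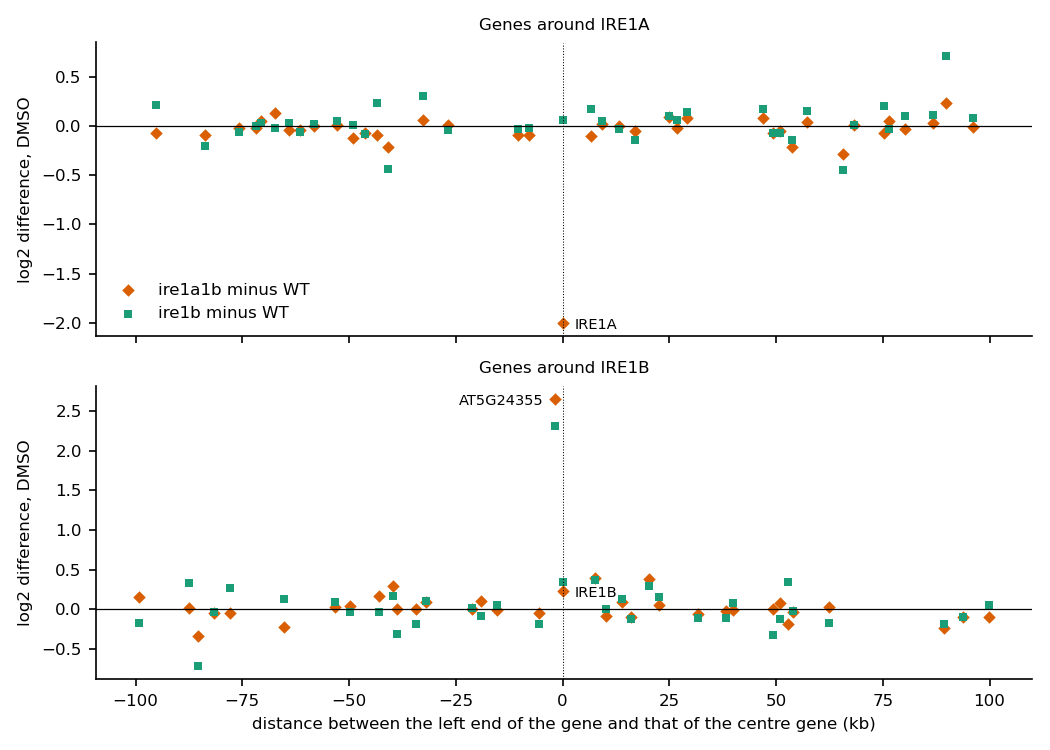
Log2 difference in DMSO of the tested genes around IRE1A and IRE1B against the distance between the left ends of the genes in kb, ire1a1b minus WT as orange diamonds and ire1b minus WT as green squares. IRE1A stands out at -2 in ire1a1b, AT5G24355 at 2.65 and 2.31 beside IRE1B, and the other neighbours lie between -0.71 and 0.72.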

How the data were processed

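The 9 DMSO libraries and, for comparison, the 9 TM libraries were used. The deposited values are raw counts per gene; the submitters' processing notes name STAR 2.4.0, HTSeq 0.6.0, DESeq2 and the build TAIR10. Summary entries that name no gene stayed out: 1.202% to 1.419% of counts had no feature, 1.094% to 1.231% were ambiguous and 3.331% to 3.713% were not unique. Of 27416 identifiers 26719 matched the TAIR10.1 annotation, which gave names, products and coordinates.

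Genes were kept by filterByExpr, scaled by TMM (0.9668 to 1.036 in DMSO) and tested by robust quasi-likelihood (edgeR 4.0.16, R 4.3.3; a mean for each group) on the 9 DMSO libraries, the 9 TM libraries, or all 18 for the difference between conditions. Benjamini-Hochberg adjustment covered every gene tested, and each adjusted p is from these fits unless another is named. The script was tested on simulated data. Replicates differed beyond counting noise (chi-square over degrees of freedom 2.893 to 55.71), so none was a copy of another. No label says that replicates were grown separately, so the spread behind the p-values may be only technical.

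Replicate numbers are those of the sample titles, which a separate replicate tag in the labels contradicts for some samples, so the pairing and every replicate block rest on the title numbers. WT was taken as paired with ire1a1b (residual correlations 0.65 to 0.88, all above 0.1), but ire1b with neither (lowest 0.07 and 0). This is only a hint from the data, and it rests in part on the outlying libraries numbered 1. The comparison and the gene lists were chosen with earlier results of these data known, and the phloem and xylem markers and the membrane protein families after the values here were seen. Named genes were IRE1A, IRE1B and, among called genes with mean log2 CPM of at least 2 and no overlap, the 12 largest changes per direction; list members could be examples; the other called genes were named after their values were seen. Alternatives were RLE scaling, other filters, DESeq2 1.42.0, the replicate block, all 18 libraries in the fit, the controls as 1 group of 6, and leaving out libraries.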

Additional observations from a re-analysis of the deposited data

Results flagged for a closer look

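The contrast of ire1a1b with the average of WT and ire1b differed between TM and DMSO, by the interaction in the fit of all 18 libraries, for 11 genes named here. It was larger with TM by log2 1.09 for BGLU33, 0.70 for AT1G29520 and 0.55 for ENODL9, which were higher in ire1a1b in all 3 libraries of both conditions. It was lower with TM by log2 -5.85 for NAC103, -3.72 for AT3G15980, -2.71 for BIP3, -2.09 for TIN1, -1.05 for AT1G29310, -0.92 for HSP90.7, -0.53 for BIP1 and -0.47 for HRD1B. None of these 8 passed in the averaged DMSO contrast.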

How the results depend on the processing

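The 26 genes kept their direction in all 18 alternatives. These reuse the libraries that chose the genes, so the kept direction is no separate support. RLE scaling, no filter on low counts and 1 CPM in 3 libraries each gave 26 calls. The replicate block and the controls as 1 group of 6 gave 26 calls too, each with 24 of the 26 genes. All 18 libraries in the fit gave 36 and DESeq2 39, each with all 26 genes. Without replicate 1 of every group the counts were 16 for the averaged contrast, 7 against WT, 5 against ire1b and 2 for ire1b against WT, and without replicate 1 of WT and of ire1a1b the last was 3. DESeq2 gave 38 against WT, 36 against ire1b, 9 for ire1b against WT and 812 for the difference of the TM and DMSO contrasts. All 18 libraries gave 27 against WT and 6 for ire1b against WT. The replicate block gave 4 for ire1b against WT, 3384 for the TM contrast and 1249 for the difference of contrasts; WT and ire1a1b alone gave 191 with the replicate block, 164 with it and without their libraries numbered 1, and 1 without it. The block changed no count of the other contrasts by over 1.5 times. With each library left out in turn the averaged contrast gave 8 to 24 calls, ire1a1b against WT 3 to 7, against ire1b 2 to 22, ire1b against WT 0 to 1, the TM contrast 1245 to 2331, the difference of contrasts 385 to 665, and the 26 genes passed with TM in each (26 to 26). Over 27 single genes and 486 values, 0 changed sign, 94 fell below the threshold and 392 stayed on their side; the cause was not tested. The calls of SEC31A and AT2G05915 rest on 2 and 13 counts in ire1a1b against 218 and 201 in the controls.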
